A study of Homo sapiens with 18 samples.

Results

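The genes described here are the RAN GTPase, its regulators, the importins and exportins that carry cargo under its control, and the nucleoporins that build the pore. They form a list of 55 genes chosen by name, not by a measured value, but with earlier results of these data known. All of them were found among the 21111 probes of the table, with 58 probes in all because NUP50, NUP62 and NUP98 each have a pair. The probes were read by TempO-Seq in BT549, Hs578T and SUM149PT, established lines of triple-negative breast cancer (TNBC). Per line, 3 replicates received siASAP1, an siRNA pool against the Arf GTPase-activating protein ASAP1, and 3 received siCtrl, which was a pool of siRNAs against kinases, both at 50 nM for 72 h, giving 18 libraries. No untransfected cells were among the samples, so every library shares the transfection. The comparison asked whether RAN moved together with its regulators, receptors and pore proteins when ASAP1 was silenced. RAN, RANBP1, KPNA4, CSE1L and NUP85 had been listed as changed by the study on these same samples, so their changes here are not independent evidence.

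RAN is a small GTPase whose GTP-bound form is concentrated in the nucleus, because its exchange factor RCC1 sits on chromatin and its GTPase-activating protein RANGAP1 sits in the cytoplasm, helped by RANBP1 and RANBP2. Importins pick up cargo in the cytoplasm and release it on meeting RAN-GTP in the nucleus, whereas exportins need RAN-GTP to hold their cargo. NUTF2 carries RAN-GDP back into the nucleus, and CSE1L is the exportin that returns the importin alpha adaptors to the cytoplasm. In mitosis RAN-GTP releases spindle assembly factors near the chromosomes.

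The promoters of RAN and CSE1L are shown because these were the only members called over the 18 libraries. Each window is 300 bases of RefSeq sequence on GRCh38.p14, 250 before and 50 from the annotated start, and capitals mark every match to the motifs searched on both strands. RAN lies at chr12:130871816-130872115 and CSE1L at chr20:49046062-49046361, both on the plus strand.
RAN: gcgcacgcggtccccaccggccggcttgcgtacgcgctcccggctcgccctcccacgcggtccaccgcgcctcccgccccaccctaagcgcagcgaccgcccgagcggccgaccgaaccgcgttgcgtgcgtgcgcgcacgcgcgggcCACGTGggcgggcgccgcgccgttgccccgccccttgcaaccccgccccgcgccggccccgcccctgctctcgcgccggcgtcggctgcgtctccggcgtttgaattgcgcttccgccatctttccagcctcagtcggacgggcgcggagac
CSE1L: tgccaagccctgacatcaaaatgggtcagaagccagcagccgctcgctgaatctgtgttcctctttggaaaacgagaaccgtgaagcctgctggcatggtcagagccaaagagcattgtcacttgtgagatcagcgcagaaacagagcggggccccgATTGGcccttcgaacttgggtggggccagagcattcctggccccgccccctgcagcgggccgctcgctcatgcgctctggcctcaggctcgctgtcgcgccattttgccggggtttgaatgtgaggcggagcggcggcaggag
The capitals in RAN are an E-box, CACGTG, the hexamer bound by MYC and related factors, with its first base at position -102 from the start. Those in CSE1L are a CCAAT box on the minus strand, beginning at position -93. A promoter was found for 49 members, of which 7 (14.3%) held an E-box (RAN, KPNA3, IPO4, IPO7, TNPO2, NUP50 and NUP188), against 7.43% of all 27305 promoters. A CCAAT box was in 20 (40.8%) against 35.7%, and the ETS core CCGGAAG in 14 (28.6%) against 10.7%. The E2F motif was searched in 2 forms. The form searched first, which puts a further T in front of the core TTGGCGC, of its variant TTCCCGC or of the other variant TTCGCGC, was in 4 (8.16%) against 2.79%. The cores without that T, tried after the first result was known, were in 17 (34.7%) against 11.2%, so the count of members depends on the form. Neither form was in RAN or CSE1L. These are matches of letters, and no binding was measured.

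A probe reports a short stretch of its target RNA, so levels were compared between libraries for the same probe and not between genes. Levels are normalized counts, the reads of a probe divided by the size factor of its library. The libraries held 4.63 to 12.5 M reads, of which the members took 0.529% to 0.989%. The ASAP1 probe checks the silencing and read 1107, 966 and 944 with siCtrl and 367, 729.7 and 783 with siASAP1 in BT549. It read 1641, 1414 and 2697 with siCtrl and 782, 825 and 1261 with siASAP1 in Hs578T. In SUM149PT it read 1087, 189 and 1314 with siCtrl and 282, 468 and 184 with siASAP1. The library labelled SUM149PT siCtrl 2 thus had an ASAP1 level inside the range of the silenced libraries, against its label. That library and BT549 siASAP1 1 also had the highest shares of reads in members, and the calls in these lines are given with and without it. The summed level of 6 epithelial markers was 27579 to 55164 in SUM149PT and 57.4 to 495 in BT549 and Hs578T. That of 5 mesenchymal markers was 5712 to 11847 and 57093 to 265204. In such bulk lysates fewer cells of a kind and less RNA per cell cannot be told apart.

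After silencing of ASAP1, RAN and CSE1L fell, while the other members lay on both sides of 0 without passing the threshold. In a fit of all 18 libraries that allowed for the line, 2 of 47 member probes were called lower and 0 higher at an adjusted p under 0.05 (limma, Benjamini-Hochberg adjustment over all probes). The background was 1.06% of all 10475 probes lower and 0.678% higher. Before adjustment 6 members were at a p under 0.05, RAN and CSE1L lower and KPNA4, IPO13, TNPO3 and NUP210 higher (NUP210 with Hs578T libraries below the filter in that line), which is 12.8% of members against 15.8% of all probes. The median Log2 FC of the members was -0.04 against 0.02 for all probes, and 25 of 47 (53.2%) were below 0 against 48.3%. With libraries scaled by their totals alone these medians were 0.09 and 0.15.

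RAN had lower mean levels after siASAP1 in each line. In BT549 it stood at 9522, 4517 and 4779 with siCtrl and 4692, 2643 and 1758 with siASAP1. The groups overlapped there, because siASAP1 1 was above siCtrl 2. In Hs578T it stood at 8393, 7680.2 and 9259 with siCtrl and 5200.0, 5826 and 4327 with siASAP1. In SUM149PT it stood at 8448, 16263 and 8467 with siCtrl and 3191, 2902 and 3524 with siASAP1. The groups were apart in these lines, and SUM149PT siCtrl 2 had the highest level of the 18 libraries. The ASAP1 level of that library was 189. BT549 siASAP1 1, with the lowest ASAP1 level of its line (367), had the highest RAN level of the BT549 siASAP1 libraries. The siASAP1 mean was 48.3% of the siCtrl mean in BT549, 60.6% in Hs578T and 29.0% in SUM149PT.

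Over the 18 libraries RAN had a Log2 FC of -1.18 (SE 0.23, 95% confidence interval -1.65 to -0.70, adjusted p = 0.0105 by limma). An exact two-sided permutation of the labels within lines gave p = 0.0005, where 0.00025 is the smallest p possible. Within a line 3 libraries against 3 cannot go below 0.1, and the exact permutation p was 0.2 for BT549 and 0.1 for each of the others. The study's own limits ask for an absolute Log2 FC over 1 at a p below 0.05 before adjustment. By these RAN was called lower in BT549 (-1.08, SE 0.44) and SUM149PT (-1.72, SE 0.38) but not in Hs578T (-0.73, SE 0.22), where the fold was too small. After adjustment RAN passed in no line (adjusted p = 0.334 in SUM149PT, 0.617 in BT549 and 0.915 in Hs578T by limma). A fit of all 18 libraries, which share 1 estimate of the spread, gave the RAN contrast of SUM149PT an adjusted p = 0.0202 and that of BT549 an adjusted p = 0.375. Without SUM149PT siCtrl 2 the Log2 FC in that line was -1.40, and without BT549 siASAP1 1 that of BT549 was -1.45, both called. The BT549 call was lost without siCtrl 1 (-0.73), siASAP1 2 (-1.04) or siASAP1 3 (-0.74). The interaction of line and treatment was not called for RAN (adjusted p = 0.965 by limma).

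**Figure D1:**
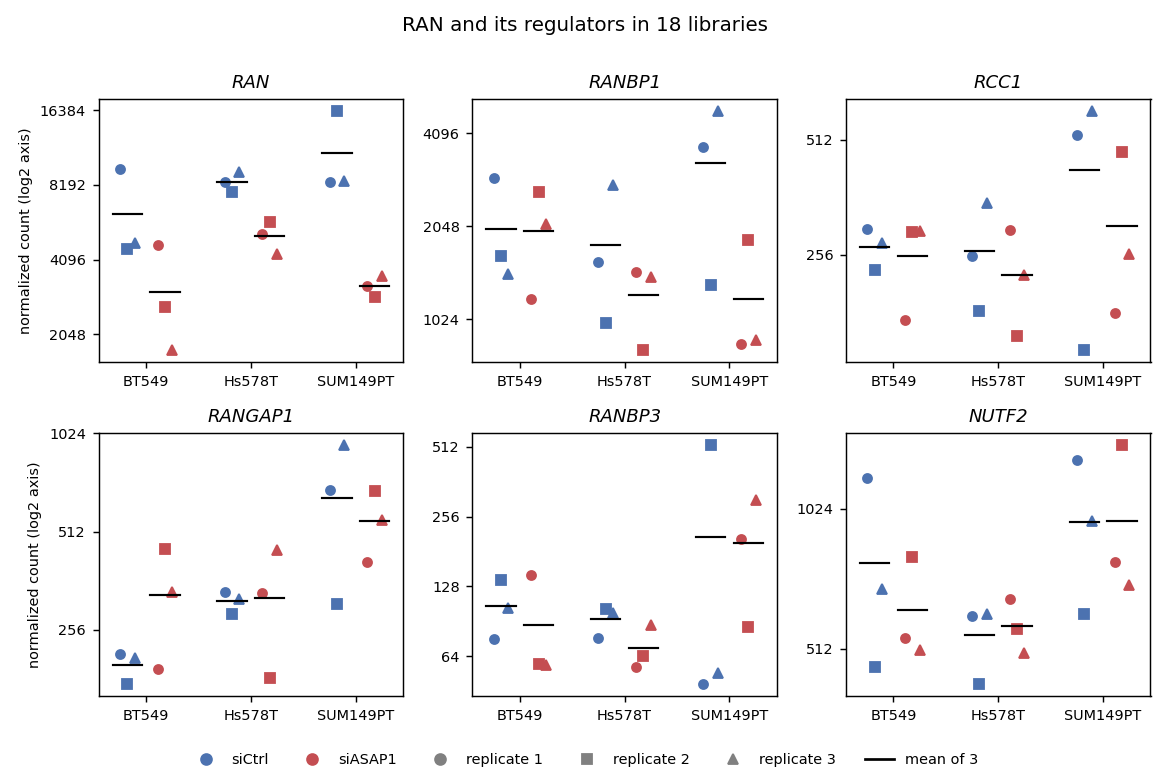
Normalized counts (vertical log2 axis) of RAN and 5 of its regulators in the 18 libraries, by cell line, with siCtrl in blue, siASAP1 in red, a marker shape for each replicate and a bar for the mean of 3. RAN lies below every siCtrl library of the same line after siASAP1 in Hs578T and SUM149PT, and RANBP1 and RCC1 have their lowest SUM149PT siCtrl level in replicate 2.

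Of the 6 regulators, 5 passed the filter on low counts, and RANBP1 in SUM149PT was the only one called in a line. RANBP1, which binds RAN-GTP and assists RANGAP1, stood there at 3714, 1325 and 4837 with siCtrl and 851, 1847 and 877 with siASAP1. The groups overlapped through siCtrl 2 and siASAP1 2. Its Log2 FC was -1.37 (SE 0.57, adjusted p = 0.477 by limma) and -1.93 without siCtrl 2. The call was lost without siCtrl 1, siCtrl 3, siASAP1 1 or siASAP1 3, where the Log2 FC lay between -1.20 and -0.99. It was lost in 9 of 16 alternatives in all, among them scaling by totals alone, a minimum mean of 50 normalized counts and voom weights. In BT549 RANBP1 stood at 2949, 1640.0 and 1437 with siCtrl and 1195, 2654 and 2081 with siASAP1, with the groups overlapping. Its Log2 FC was -0.02 in BT549, -0.46 in Hs578T and -0.62 over the 18 libraries (-1.26 to 0.03, adjusted p = 0.333).

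RCC1, which charges RAN with GTP, stood at 526, 144 and 607 with siCtrl and 179.9, 474 and 258 with siASAP1 in SUM149PT. The groups overlapped, and siCtrl 2 was the lowest of the 6 libraries. Its Log2 FC there was -0.35 and without siCtrl 2 -1.01, neither called. Its Log2 FC over the 18 libraries was -0.23 (95% confidence interval -0.80 to 0.35). RANGAP1 had 0.15 (-0.37 to 0.67), NUTF2 -0.06 (-0.50 to 0.39) and RANBP3, a cofactor of XPO1, -0.05 (-0.91 to 0.81). These intervals include 0. In SUM149PT without siCtrl 2, RANBP3 was called higher at 1.75, against 0.64 and no call with all libraries. RANBP2, the large nucleoporin that holds RANGAP1 at the pore, was listed at 0 in 17 of 18 libraries and was not tested.

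The change of each member was also set against that of RAN in the same library, a comparison added after the data were seen. RAN had the lowest Log2 FC of the members tested over the 18 libraries, so every difference was bound to lie above it. Each test also subtracts the same RAN values, so the tests are not independent of each other. Of 46 member probes 33 differed from RAN at an adjusted p under 0.05, all above it, against 59.8% of all other probes. KPNB1 was above RAN by 1.38 on the log2 scale (adjusted p = 0.00429 by limma) and RANGAP1 by 1.33 (adjusted p = 0.00756). NUTF2 was above it by 1.12 (adjusted p = 0.00599), RANBP3 by 1.13 (adjusted p = 0.0281) and RCC1 by 0.95 (adjusted p = 0.0451). For CSE1L the difference was 0.45 (95% confidence interval -0.03 to 0.94, adjusted p = 0.093) and for RANBP1 0.56 (-0.23 to 1.34, adjusted p = 0.191), so neither was told apart from RAN. Without both libraries that stood apart 32 of 45 differed from RAN, all above it, against 60.6% of all other probes. CSE1L was then above RAN by 0.40 (95% confidence interval 0.04 to 0.75, adjusted p = 0.0505 by limma) and RANBP1 by 0.48 (-0.21 to 1.17, adjusted p = 0.196).

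**Figure D2:**
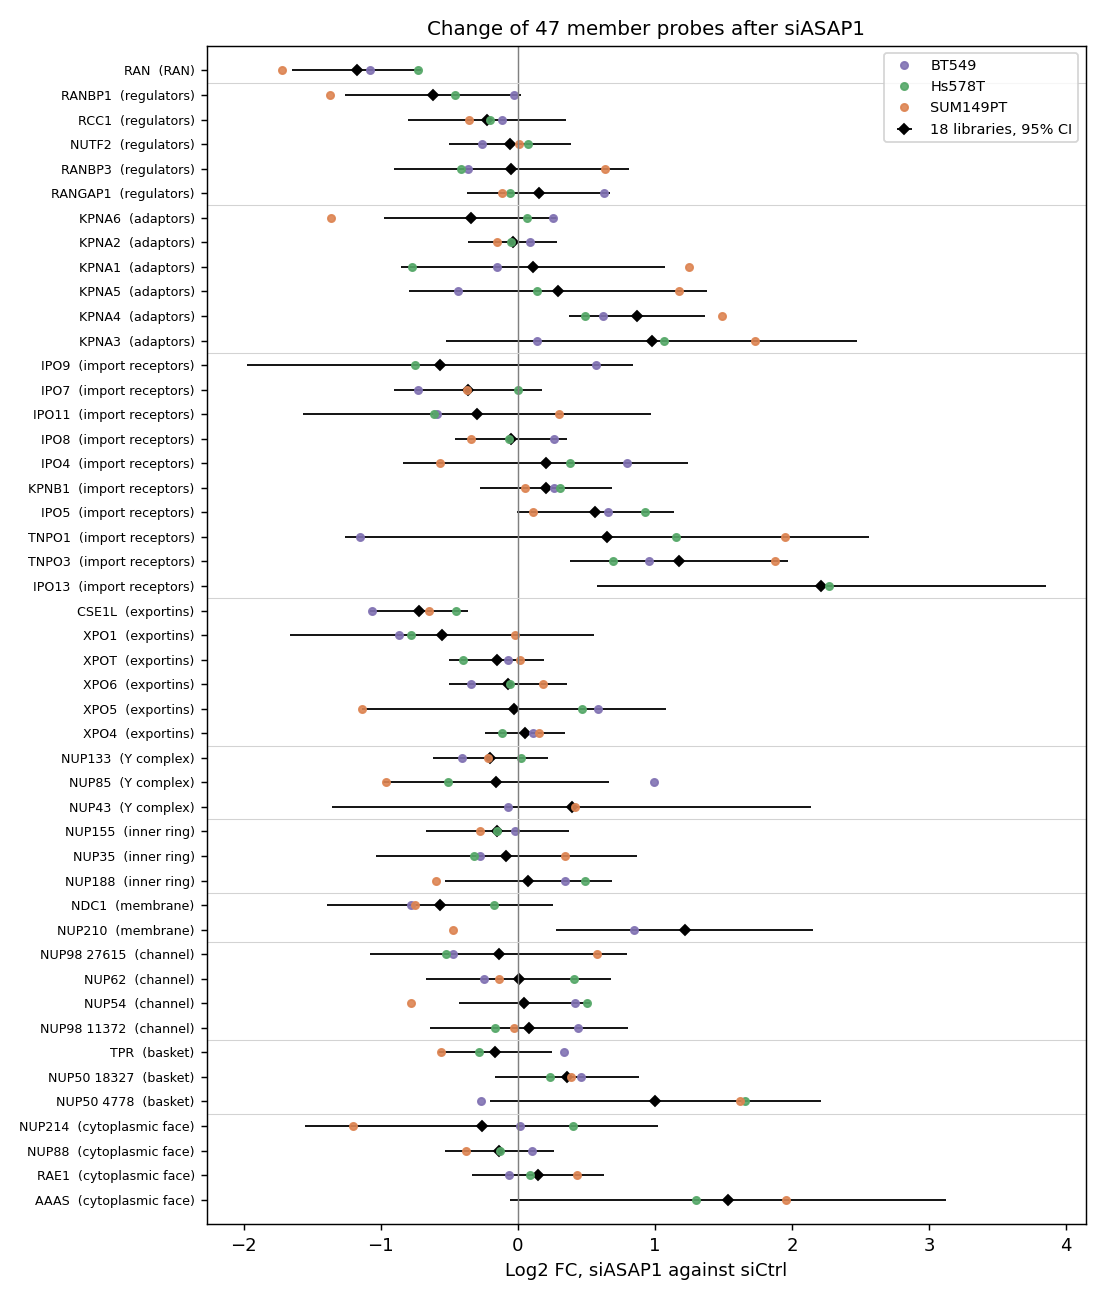
Log2 FC of siASAP1 against siCtrl (horizontal axis) for the 47 member probes tested, grouped by role, with a coloured point for each line and a black diamond with its 95% confidence interval for the 18 libraries, and no point where a probe was below the filter in that line. The intervals wholly below 0 belong to RAN and CSE1L and those wholly above 0 to KPNA4, IPO13, TNPO3 and NUP210, none of which passed the adjusted threshold, and that of NUP210 includes Hs578T libraries below the filter.

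Of the 7 exportins, 6 were tested over the 18 libraries, and CSE1L was the only one called. CSE1L stood at 9859, 4675 and 5284 with siCtrl and 3892, 3169 and 2162 with siASAP1 in BT549. In Hs578T it stood at 5957, 5723 and 4986 with siCtrl and 4223, 4279 and 3669 with siASAP1. In SUM149PT it stood at 5532, 5164 and 5067 with siCtrl and 3387, 3231 and 3435 with siASAP1. Every siASAP1 library was below every siCtrl library of its line, which held for 63 of all probes (0.601%) and for no other member.

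Over the 18 libraries the Log2 FC of CSE1L was -0.72 (SE 0.17, 95% confidence interval -1.08 to -0.37, adjusted p = 0.0349 by limma). This call was lost when any of 12 of the 18 libraries was left out, with an adjusted p of up to 0.0664. These were BT549 siCtrl 1 and 3 and siASAP1 2 and 3, Hs578T siCtrl 1 and siASAP1 1 and 3, and SUM149PT siCtrl 1 and 3 and all siASAP1 libraries. The study's limits called CSE1L in BT549 (-1.06, SE 0.38) but not in Hs578T (-0.45, SE 0.21) or SUM149PT (-0.65, SE 0.31). The call over the 18 libraries was also lost with libraries scaled by their totals alone and without the filter on low counts. The BT549 call was lost without siCtrl 1 (-0.73) or siASAP1 3 (-0.83).

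XPO1, which exports proteins with a leucine-rich signal, is named after its values were seen, for its spread between replicates. In SUM149PT it stood at 1109.8, 15121 and 1396 with siCtrl and 4477, 926 and 5438 with siASAP1. In BT549 it stood at 2805, 4948 and 4478 with siCtrl and 6838, 1334 and 1129 with siASAP1. In Hs578T it stood at 5552, 7096 and 1682 with siCtrl and 2556, 5084 and 1003 with siASAP1. The groups overlapped in every line, and SUM149PT siCtrl spanned a 13.6-fold range. The Log2 FC over the 18 libraries was -0.55 (95% confidence interval -1.66 to 0.55), an interval that covers both 0 and the estimate for RAN. XPO4, XPO6 and XPOT, the exporter of tRNA, had 0.05, -0.07 and -0.15, and XPO5, which exports miRNA precursors, had -0.03 (SE 0.53).

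**Figure D3:**
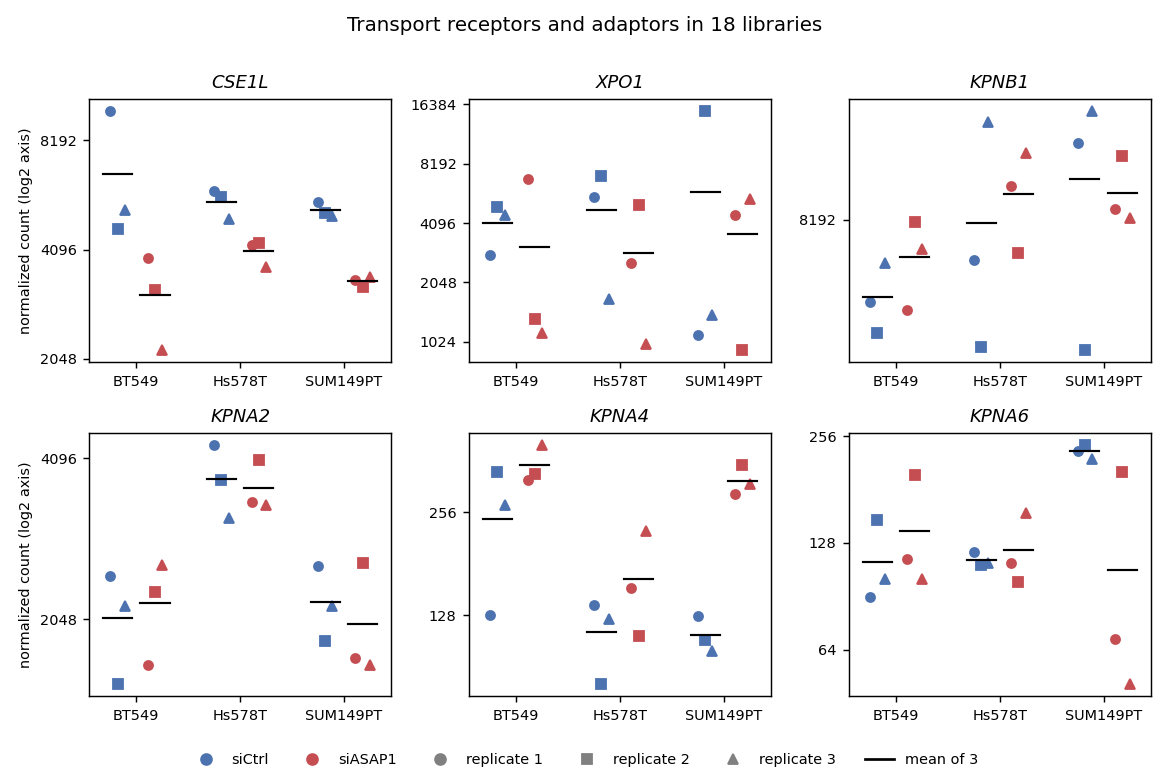
Normalized counts (vertical log2 axis) of CSE1L, XPO1, KPNB1, KPNA2, KPNA4 and KPNA6 in the 18 libraries, by cell line, with siCtrl in blue, siASAP1 in red, a marker shape for each replicate and a bar for the mean of 3. CSE1L is separated in every line, KPNA4 only in SUM149PT among the lines, and XPO1 overlaps in all of them.

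The importin alpha adaptors KPNA1 to KPNA6 bind the classical nuclear localization signal and join the cargo to KPNB1. All 6 were tested, none was called over the 18 libraries (limma, 1 at an unadjusted p under 0.05, KPNA4), and in SUM149PT 1 was called lower and 1 higher. KPNA4 stood at 127, 108 and 101 with siCtrl and 289.7, 351 and 309 with siASAP1 in SUM149PT, with no overlap. Its Log2 FC was 1.49 there (SE 0.41, adjusted p = 0.348 by limma), 0.62 in BT549, 0.49 in Hs578T and 0.87 over the 18 libraries (SE 0.24, adjusted p = 0.0659). In the fit of all 18 libraries its SUM149PT contrast had an adjusted p = 0.0482 by limma. The value over the 18 libraries passed with a minimum mean of 50 normalized counts (adjusted p = 0.0488 by limma), without BT549 siCtrl 2 (0.0453) or without Hs578T siASAP1 2 (0.0412). KPNA6 stood at 233, 242 and 221 with siCtrl and 68.8, 203 and 51.3 with siASAP1 in SUM149PT. Its groups did not overlap, although siASAP1 2 lay close to siCtrl. Its Log2 FC was -1.36 (SE 0.59, adjusted p = 0.491 by limma), at the very edge of the limit before adjustment. The call was lost without any SUM149PT library other than siASAP1 2, where the Log2 FC lay between -1.40 and -0.97. It was also lost with scaling by totals alone and with a pseudocount of 5. KPNA2, an adaptor abundant in dividing cells, had -0.04 over the 18 libraries (-0.36 to 0.29), and KPNA3 had 0.98 with an SE of 0.72.

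Of the 11 import receptors, 10 were tested over the 18 libraries and none was called (limma, 2 higher at an unadjusted p under 0.05, IPO13 and TNPO3). KPNB1, importin beta, stood at 11708, 4439 and 13618 with siCtrl and 8594, 11015 and 8274 with siASAP1 in SUM149PT. These groups overlapped, with siCtrl 2 lowest, and the Log2 FC there was 0.05 with siCtrl 2 and -0.45 without it. Its Log2 FC over the 18 libraries was 0.21 (-0.28 to 0.69). IPO13 had the highest value of the members, 2.21 (SE 0.78, adjusted p = 0.155), on a probe with at most 48 reads and none in some libraries. TNPO3, the importer of SR splicing factors, had 1.18 (SE 0.38, adjusted p = 0.123), on at most 84 reads. IPO7, which imports ribosomal proteins, had -0.37 (SE 0.26).

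Of the 27 nucleoporin probes, 19 were tested over the 18 libraries, 9 of them below 0, and 0 were called there or in a line by limma, NUP210 being the one at an unadjusted p under 0.05 over the 18 libraries. The median Log2 FC was -0.16 for the 3 tested probes of the Y complex, which coats the pore, and -0.08 for the 3 of the inner ring. It was 0.03 for the 4 of the channel, 0.36 for the 3 of the nuclear basket and 0.01 for the 4 of the cytoplasmic face. The 2 of the membrane lay on both sides of 0, NDC1 at -0.57 (SE 0.39) and NUP210 at 1.22, the latter with Hs578T libraries below the filter. The value farthest from 0 was 0.39 for NUP43 in the Y complex (SE 0.83) and -0.15 for NUP155 in the inner ring (SE 0.25). In the channel a NUP98 probe had -0.14 (SE 0.45), in the basket a NUP50 probe had 1.00 (SE 0.58), and on the cytoplasmic face AAAS had 1.54 (SE 0.76) on few reads. The other NUP50 and NUP98 probes had 0.36 and 0.08.

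By line, the study's limits with limma called 2 of 45 member probes lower in BT549 (RAN and CSE1L) and 0 higher, against a background of 3.69% lower and 3.28% higher. In Hs578T 0 were called, with RAN alone at an unadjusted p under 0.05, against 1.44% called lower and 1.34% higher. Leaving out siCtrl 2 gave 2 called and leaving out siCtrl 3 gave 1, with the share of all probes in those fits not worked out. In SUM149PT 3 were called lower (RAN, RANBP1 and KPNA6) and 1 higher (KPNA4), against 4.29% lower and 5.27% higher. With libraries scaled by their totals alone the SUM149PT split was 1 lower (RAN) and 2 higher (KPNA4 and TNPO3). The groups did not overlap for 8.89% of members in BT549, 11.1% in Hs578T and 20% in SUM149PT, against 13.9%, 12.1% and 17.3% of all probes. Without BT549 siASAP1 1 these shares in BT549 were 41.3% and 46.3%, and without SUM149PT siCtrl 2 those in SUM149PT were 51.1% and 44.8%, with fewer libraries to overlap. In the interaction test 0 of 47 members passed an adjusted p under 0.05 by limma (background 0.00955%). Before adjustment 3 did, NUP210 (with Hs578T libraries below the filter), NUP54 and KPNA6, or 6.38% against 6.22% of all probes.

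The counts in BT549 and SUM149PT depended on the libraries that stood apart, SUM149PT siCtrl 2 and BT549 siASAP1 1. Other libraries were also far from their replicates. By chi-square per degree of freedom on reads, BT549 siASAP1 1 had 131 and 146 against its replicates (40.4 between these). SUM149PT siASAP1 2 had 129 and 101 (23.6), Hs578T siCtrl 3 had 96.5 and 141 (26.3) and BT549 siCtrl 1 had 107 and 77.6 (19.9). SUM149PT siASAP1 2, Hs578T siCtrl 3 and BT549 siCtrl 1 were kept in the fits without the libraries that stood apart. In SUM149PT siASAP1 2, XPO1 (926) and RCC1 (474) lay nearer to siCtrl 1 and 3 than to siASAP1 1 and 3. In siCtrl 2 they (15121 and 144) lay nearer to siASAP1 1 and 3. RAN (2902), CSE1L (3231) and KPNA4 (351) in siASAP1 2 lay with the other siASAP1 libraries instead. The reason was not tested. SUM149PT siCtrl 2 was over 1 log2 unit above the mean of its replicates in 21 of 47 members and over 1 below in 7, together 59.6% against 58.5% of all probes. BT549 siASAP1 1 was above in 12 and below in 2, together 29.8% against 44.9%. In both libraries 11 probes were above (IPO11, IPO7, KPNA5, NDC1, NUP35, NUP43, NUP50, NUP98, RANBP3, TNPO1 and XPO1) and 1 below (NUP85). XPO1 differed by 3.60 and 2.48, in the order SUM149PT siCtrl 2 and BT549 siASAP1 1. TNPO1, which imports hnRNP proteins, differed by 5.40 and 3.78, RAN by 0.94 and 1.12, and CSE1L by -0.04 and 0.57. RCC1 differed by -1.97 and -0.77, and RANBP1 by -1.68 and -0.98.

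**Figure D4:**
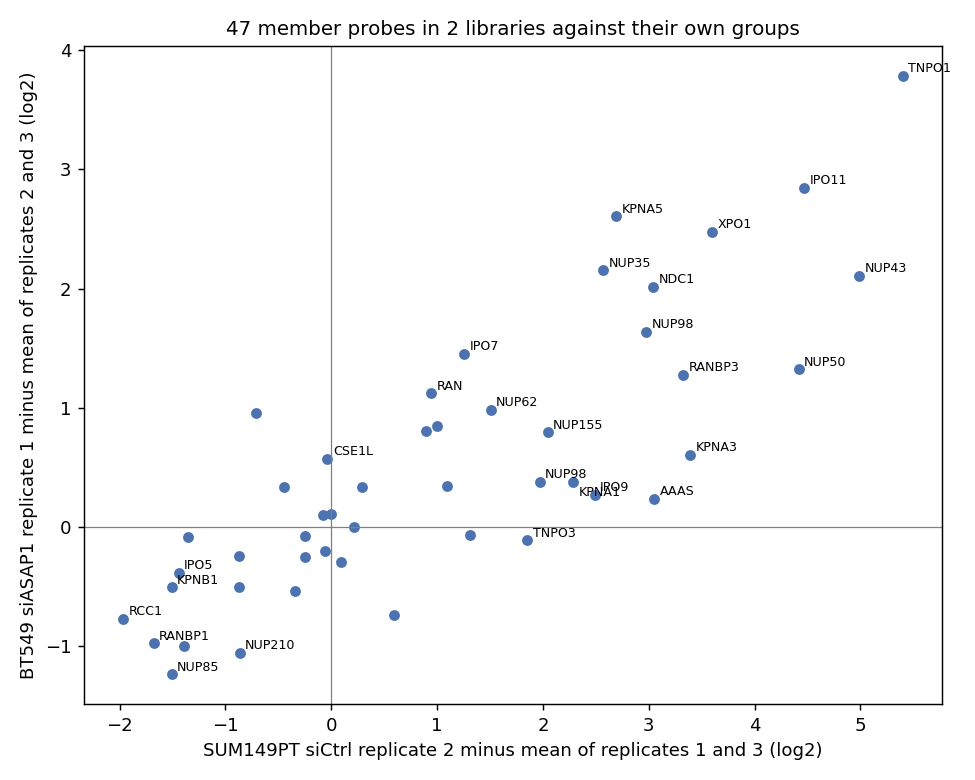
Difference of SUM149PT siCtrl replicate 2 (horizontal axis, log2) and of BT549 siASAP1 replicate 1 (vertical axis, log2) from the mean of the other replicates of their groups, with a point for each of the 47 member probes. TNPO1, IPO11 and XPO1 lie up and to the right, RCC1, RANBP1 and NUP85 lie down and to the left, and CSE1L lies near 0 on the horizontal axis.

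Without SUM149PT siCtrl 2, 10 members were called in SUM149PT, 3 lower and 7 higher, against a background of 8.94% and 14.4%. RAN, RANBP1 and NUP85 were lower, and KPNA1, KPNA4, KPNA5, RANBP3, TNPO1, TNPO3 and NUP98 were higher. Without BT549 siASAP1 1, 10 were called in BT549, 8 lower and 2 higher, against 13.2% and 9.28%. RAN, CSE1L, XPO1, TNPO1, IPO7, IPO11, KPNA5 and NDC1 were lower, and NUP210 and NUP85 were higher. Both libraries had been set apart partly for their high share of reads in members. Members high in BT549 siASAP1 1 were thus bound to shift lower without it, and those high in SUM149PT siCtrl 2 to shift higher. These counts are therefore not separate evidence of a change. Without siASAP1 1, XPO1 was at -1.69 in BT549 (adjusted p = 0.0321 by limma). In SUM149PT without siCtrl 2 it was at 1.18 and not called. In that BT549 fit TNPO1 (adjusted p = 0.0408 by limma) and NDC1 (adjusted p = 0.0446) also passed. TNPO1 was at -2.42 in BT549 and 3.75 in SUM149PT in these fits, and KPNA5 at -1.31 and 2.07.

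Between the lines with siCtrl, BT549 and Hs578T differed in 2 of 45 members at an adjusted p under 0.05 with a Log2 FC beyond 1 in either direction (background 13.8%). BT549 and SUM149PT differed in 3 (background 18.2%), and Hs578T and SUM149PT in 4 (background 20.2%). Each line enters 2 of these comparisons. The BT549 and SUM149PT calls fell to 0 without BT549 siCtrl 2 or 3 or SUM149PT siCtrl 1 or 3 and to 1 without BT549 siCtrl 1 or Hs578T siCtrl 1, and those of Hs578T and SUM149PT to 2 without Hs578T siCtrl 1 or 2 or SUM149PT siCtrl 1 or 3. Without SUM149PT siCtrl 2, BT549 and Hs578T differed in 4. The share of all probes was not worked out for these fits without 1 library, so their counts have no background. RAN was not called in any pair of lines with all siCtrl libraries (adjusted p = 0.472, 0.196 and 0.626 by limma).

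NUP210, a membrane nucleoporin known to vary between tissues, stood at 391, 524 and 589 in BT549 siCtrl and at 446, 225 and 379 in SUM149PT siCtrl. It had 0 reads in each Hs578T siCtrl library. Against a floor of 3 reads per library, it was at least 190-fold lower in Hs578T than in BT549 and at least 132-fold lower than in SUM149PT, bounds that cover counting error only. After siASAP1 the Hs578T libraries had 14, 11 and 6 reads. In BT549 it stood at 545, 1309 and 984 after siASAP1 (Log2 FC 0.85, SE 0.42) and in SUM149PT at 193, 413 and 177 (-0.47, SE 0.51). The groups overlapped in both lines. The probe was below the filter in Hs578T, so its value over the 18 libraries (1.22, adjusted p = 0.177 by limma) and its interaction rest in part on those few reads, and nothing is read from them.

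XPO4, the exporter of the translation factor EIF5A, stood at 1499.9, 1497 and 1524 in BT549, 464, 494 and 596 in Hs578T and 1818, 1375 and 1942 in SUM149PT siCtrl. Hs578T lay below both others, by a Log2 FC of 1.55 for BT549 against Hs578T (adjusted p = 0.00409 by limma) and -1.71 for Hs578T against SUM149PT (adjusted p = 0.00152). XPOT was higher in Hs578T than in SUM149PT by 1.07 (adjusted p = 0.0364). NUP54, of the central channel, stood at 457, 259 and 284 in BT549, 360.3, 353 and 276 in Hs578T and 875, 732 and 860.0 in SUM149PT. SUM149PT lay above both others, with -1.34 for BT549 against it (adjusted p = 0.0173) and -1.32 for Hs578T (adjusted p = 0.0178). NUP155 was higher in BT549 than in SUM149PT by 1.81 (adjusted p = 0.0463), with SUM149PT at 203, 620.4 and 110.3. RANGAP1 stood at 216, 175 and 209.7 in BT549 against 688, 307 and 945 in SUM149PT (-1.55, adjusted p = 0.0295). In the latter pair siCtrl 2 was again the SUM149PT library nearest to BT549. Without it BT549 and SUM149PT differed in 13 members (background 33.2%) and Hs578T and SUM149PT in 11 (background 30.7%).

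**Figure D5:**
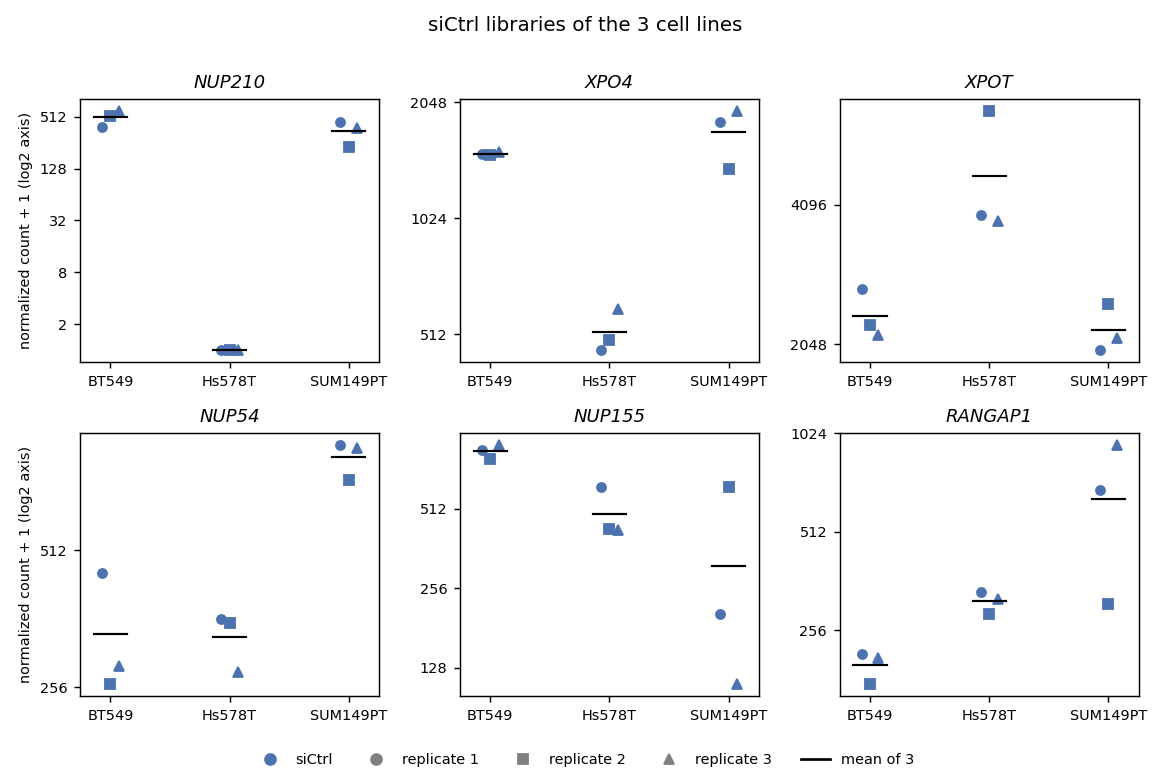
Normalized counts plus 1 (vertical log2 axis) of NUP210, XPO4, XPOT, NUP54, NUP155 and RANGAP1 in the 9 siCtrl libraries, by cell line, with a marker shape for each replicate and a bar for the mean of 3. NUP210 sits at the floor in all 3 Hs578T libraries, and XPO4 is lower in Hs578T than in either other line.

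After silencing, NUP54 stood at 554, 385 and 471 in Hs578T, above every siCtrl library (Log2 FC 0.50, SE 0.29), and at 418, 674 and 385 in SUM149PT, below every siCtrl library (-0.78, SE 0.39). Neither was called.

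The filter on low counts left out 11 member probes, each with at most 23 reads in a library. They were the only probes of RANBP2, TNPO2, XPO7, NUP37, NUP93, NUP107, NUP153, NUP160, NUP205 and SEH1L, and the second probe of NUP62. Since every nucleated cell uses several of these pore genes, no level was read from them. RefSeq names 9 pseudogenes of RAN, 7 of NUTF2, 3 of KPNA2 and 1 each of RANBP1 and KPNA4, and whether the probes also read these copies was not determined.

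Other genes of transport and division were set beside the members from lists chosen by function. Of 22 further transport and pore probes 0 were called over the 18 libraries by limma, with 3 lower and 1 higher at an unadjusted p under 0.05. In single lines the helicase DDX19A alone was called in BT549, higher (1.87, SE 0.61), against 3.28% of all probes higher. The SUMO protease SENP2 alone was called in Hs578T, lower (-1.09, SE 0.34), against 1.44% of all probes lower. Of 4 spindle factors tested, 3 were called lower in SUM149PT, HMMR (-1.49), NUSAP1 (-1.46) and KIFC1 (-1.25), against 4.29% of all probes, and 0 in each of the other lines. Without siCtrl 2, 3 were called lower in SUM149PT, against 8.94%. Over the 18 libraries 4 of 4 were below 0 and 0 were called by limma, with 2 lower at an unadjusted p under 0.05 and a lowest adjusted p = 0.0649. Of 18 proliferation probes 18 were below 0 in SUM149PT and 5 were called lower, against 46.5% and 4.29% of all probes. Without siCtrl 2 these counts were 14 and 10, against 46.9% and 8.94%. In BT549 9 of 19 were below 0 and 1 was called lower, against 50.1% and 3.69% of all probes. Without siASAP1 1 these counts were 8 and 4, against 48.7% and 13.2%. In Hs578T 10 were below 0 and 1 was called lower, against 49.2% and 1.44%. Over the 18 libraries 15 were below 0 and 1 was called lower by limma, against 48.3% and 1.06%, with 2 lower at an unadjusted p under 0.05. The one called in every line and over the 18 libraries was MCM6, a subunit of the replicative helicase, named after its values were seen. Its Log2 FC was -1.19 in BT549, -1.005 in Hs578T, -1.95 in SUM149PT and -1.38 over the 18 libraries (adjusted p = 0.00348 by limma). The study had already reported MCM6 as lowered in these same samples, so its change here is not independent evidence. The summed level of the list in SUM149PT was 18861 to 39504 with siCtrl, lowest in siCtrl 2, and 7997 to 15325 with siASAP1. In BT549 it was 15053 to 20928 and 15324 to 23857, and in Hs578T 11368 to 24298 and 12775 to 15813. Of 12 nucleolar probes 0 were called over the 18 libraries by limma, with 0 at an unadjusted p under 0.05. The part of these lists in the change of RAN was not tested.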

How the data were processed

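The authors ran TempO-Seq on lysates of the 18 samples and deposited log2 values, the log2 of the count divided by a DESeq2 size factor plus 1, for all probes. Per the labels, the authors used bcl2fastq, Bowtie and DESeq2. Aligner settings and genome build are not given in the sources used here. Values were turned back to normalized counts, and dividing by the value of 1 read gave whole reads (tolerance 0.01) for 100% of values in each library, with no molecular identifiers, so floors cover counting error only.

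A probe was tested where its normalized counts averaged 10 or more, on the log2 scale (pseudocount 1, so that changes of low probes are understated) with limma 3.58.1 in R 4.3.3, by line, over 18 libraries with the line as a term, for the interaction, and between lines in siCtrl. Since the files hold log2 values, limma took the place of the Wald test of the study. The fits were run on simulated data as a check of the code. The simulation gave all probes the same spread and had no library that stood apart, so error rates in these samples cannot be read from it. Figures used Python 3.11.15, pandas 2.3.3 and matplotlib 3.10.9. The replicates were made as biological triplicates per the study's methods. The named genes were RAN and its regulators, the members called, and the member farthest from 0 in each role and, by line pair, the 2 farthest. XPO1, XPO5, XPO6, XPOT, TNPO1, TNPO3, IPO7, KPNA1, KPNA2, KPNA5, KPNB1, NUP85 and others were named after their values were seen.

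The members and lists were chosen with earlier results of these data known. The comparison with RAN, the fits without both libraries that stood apart, and the shorter E2F form were added after the data were seen. The alternatives were another scaling (TMM or totals), filter, pseudocount, voom weights on recovered reads, summed probes, the replicate block, a joint fit, and leaving out each library.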

Additional observations from a re-analysis of the deposited data

Results flagged for a closer look

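NUP54 lay in opposite directions in 2 lines: every Hs578T siASAP1 library was above every siCtrl library (Log2 FC 0.50) and every SUM149PT siASAP1 library below every siCtrl library (Log2 FC -0.78). Of all probes 6.31% were likewise above in Hs578T and 8.41% below in SUM149PT, and NUP54 was picked from the 47 tested for this pattern. The difference between lines was tested by the interaction term and did not pass (adjusted p = 0.691 by limma).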

How the results depend on the processing

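RAN kept its call over the 18 libraries in 27 of 27 alternatives, with a Log2 FC from -1.29 to -1.04 and an adjusted p from 0.00656 to 0.0468, while CSE1L lost its call in 16. Of 1147 values of single genes under an alternative, 1092 stayed on their side of the threshold, 44 lost and 11 gained a call, and 0 with a call reversed. Most of these values had no call to lose, and the losses fell on the few results that were called. RANBP1 and KPNA6 in SUM149PT each lost theirs in 9 of 16 alternatives. A change of sign without a call was counted as staying, such as RCC1 in BT549, at -0.12 and without siASAP1 1 at 0.14. Scaling by totals alone moved the median Log2 FC of all probes in SUM149PT from 0.09 to 0.30 and gave 2 members called in Hs578T and 1 over the 18 libraries. Without the filter on low counts these counts were 1 and 1, and with a pseudocount of 5 Hs578T had 1. A fit of all 18 libraries gave 4 members between BT549 and Hs578T. With the adjusted p as the call, BT549 had 0 and SUM149PT 0. Without both libraries that stood apart, 1 was called over the remaining libraries (RAN) and 1 in the interaction (NUP210, with Hs578T libraries below the filter). Leaving out 1 library at a time gave 0 to 10 members in BT549, 0 to 2 in Hs578T, 2 to 10 in SUM149PT, 1 to 3 over all libraries and 0 to 1 in the interaction, and 2 to 4 between BT549 and Hs578T, 0 to 13 between BT549 and SUM149PT and 2 to 11 between Hs578T and SUM149PT. The cause of these differences was not tested. Without siASAP1 1 the share of all probes called lower in BT549 also rose, from 3.69% to 13.2%. For most libraries left out this share was not worked out. Probes with few reads limit what can be seen, since an interval for a member such as KPNA3 or IPO13 spans several log2 units.

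The replicate numbers were not shown to pair the samples. The deviations of same-numbered libraries correlated at -0.19, -0.39 and 0.14 in BT549, 0.10, 0.42 and 0.41 in Hs578T and -0.33, -0.66 and -0.35 in SUM149PT (replicates 1 to 3), and only in Hs578T did each library correlate best with its own number. With the replicate block 1 member was called in Hs578T (a NUP50 probe), 1 in SUM149PT (RAN, with KPNA4, RANBP1 and KPNA6 no longer called) and 1 over the 18 libraries (RAN, adjusted p = 0.0468 by limma).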
